A study of Mus musculus with 24 samples.

Results

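H3K27ac sites confined to tumour fibroblasts were examined in ChIP-seq peak lists of 3 kinds of cultured mouse fibroblast. The summits of all 7 H3K27ac lists were widened by 250 bp on each side and merged where they overlapped, and a merged site was kept if it held summits of both lists from cancer-associated fibroblasts (MMTV-CAF WT and MMTV-CAF SG) and no summit of the 5 lists from the other fibroblasts. This rule kept 4840 of 100984 merged sites (4.79%), here called confined sites. "Confined" says only that no summit was listed elsewhere, since the lists hold called summits and not the signal below the calling threshold. The sites were chosen by their H3K27ac summits in these same lists, so the summits and their −log10 p are given below as a description and support nothing.

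The MMTV-CAF came from mammary tumours of MMTV-PyMT mice, in which the mammary tumour virus promoter drives the polyoma middle T antigen in the mammary epithelium, and are labelled FVB/NJ. The other fibroblasts are labelled C57BL/6: mouse embryonic fibroblasts (MEF) from embryos of E10 to E13, and wound-healing fibroblasts from dorsal skin wounds at day 10. Immortalisation with E6 and E7 of human papillomavirus was common to all of them. WT MMTV-CAF and wound-healing cells had received a non-targeting guide, SG cells of all 3 kinds a guide RNA against the transcription factor Prrx1, and MEF KI came from the Prrx1 mutant line 129S-Prrx1tm1Jfm/Mmmh, as the labels' genotype KI_PRRX1 was read. Each group had 1 library, so no difference between groups was tested, and tumour origin, mouse strain and tissue cannot be told apart. Pairs of values below are in the order WT, SG, and values of 3 MEF lists in the order WT, KI, SG. Nothing in the labels says whether a line is a clone or pools several animals.

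The H3K27ac lists held 29325 (MEF KI) to 61603 summits (MMTV-CAF SG), and those of MMTV-CAF were the longest. The H3K4me3 lists held 13125 to 29166 regions, the longest again from MMTV-CAF, and the Prrx1 lists, from WT cells, 3048 (MEF), 8000 (MMTV-CAF) and 5698 summits (wound-healing). H3K4me3 regions were also wider in MMTV-CAF in general. Over all merged sites within 1 kb of a protein-coding start their median width was 3268 and 3089 bp in MMTV-CAF. It was 2439, 1814.5 and 2238 bp in MEF and 2288 and 2638 bp in wound-healing fibroblasts. Widths at single genes below were not adjusted for this. Read totals are not part of these lists, so the depth behind them is unknown. Of 10 fibroblast genes used to check the labelled cell type, such as Col1a1 and Pdgfra, 7 carried H3K4me3 at the start in each MMTV-CAF list and 5 to 9 in the others. Of 8 epithelial genes such as Epcam and Krt8, 0 did so in either MMTV-CAF list, and of 4 leukocyte genes found, such as Ptprc, 0 did so in any list. Of 4 endothelial genes 1 did so in each list but MMTV-CAF SG, namely Kdr, at 1161 bp in MMTV-CAF WT. H3K27ac summits in or within 10 kb of these genes were less selective, with 4 of 8 epithelial, 2 of 4 leukocyte and 2 of 4 endothelial genes holding some in each MMTV-CAF list, and 2 to 4, 1 to 2 and 1 to 3 in the others. Krt8 held 5 and 8 in MMTV-CAF and Csf1r 5 and 6.

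H3K27ac is laid down by the acetyltransferases p300 and CBP at active enhancers and promoters, and distal sites with this mark differ more between cell types than promoters do. H3K4me3 marks the starts of transcribed genes. Prrx1 is a homeodomain protein of mesenchymal cells whose family recognises DNA with a TAAT core, and fibroblasts from different body regions and tissues differ in the homeobox genes, matrix genes and growth factors that they keep active.

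The following sequences show what lies at or beside some of the sites described below. The first 3 are the strongest confined sites inside the long noncoding RNA gene Firre on the X chromosome, where a stretch of 45 bases, in capitals, was common to all 3. The next is the strongest confined site in the noncoding gene 4933407K13Rik, also on X, in which capitals mark the AP-1 letters TGANTCA. The Hoxc9 site is the strongest of all confined sites, and capitals mark the Tead letters GGAATG. The last 3 are centred on Prrx1 summits of MMTV-CAF within 500 bp of the summits of confined sites nearest to the starts of Gch1, Tmem106a and Etv1. They are the strongest that hold TAATTA within 75 bp and outside exons, and TAATTA and TGANTCA are in capitals. The Etv1 stretch lies wholly beyond the end of its confined site (chr12:39514369-39515354). The Firre and Prrx1 sequences were chosen after their values had been seen. Each runs 5′ to 3′ on the plus strand of mm9, over 151 bases around the MMTV-CAF WT H3K27ac summit or the Prrx1 summit.
Firre site 1, chrX:47955914-47956064: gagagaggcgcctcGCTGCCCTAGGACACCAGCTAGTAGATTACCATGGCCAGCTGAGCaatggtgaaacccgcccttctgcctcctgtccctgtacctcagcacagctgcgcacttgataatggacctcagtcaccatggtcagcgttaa
Firre site 2, chrX:47967895-47968045: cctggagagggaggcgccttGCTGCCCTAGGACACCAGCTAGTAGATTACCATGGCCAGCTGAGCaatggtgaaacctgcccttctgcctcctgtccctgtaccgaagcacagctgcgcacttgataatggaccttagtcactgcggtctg
Firre site 3, chrX:47970459-47970609: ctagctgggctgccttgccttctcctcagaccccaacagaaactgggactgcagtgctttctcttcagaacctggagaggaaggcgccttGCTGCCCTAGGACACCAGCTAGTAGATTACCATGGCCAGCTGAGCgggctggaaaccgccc
4933407K13Rik site, chrX:72980130-72980280: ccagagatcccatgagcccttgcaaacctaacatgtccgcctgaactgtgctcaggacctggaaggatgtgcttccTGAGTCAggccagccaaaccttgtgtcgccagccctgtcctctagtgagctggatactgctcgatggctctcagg
Hoxc9 site, chr15:102803938-102804088: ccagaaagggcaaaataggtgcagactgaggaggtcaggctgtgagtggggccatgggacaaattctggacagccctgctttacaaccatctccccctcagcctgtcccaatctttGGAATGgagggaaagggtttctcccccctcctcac
Gch1 Prrx1 summit, chr14:47797643-47797793: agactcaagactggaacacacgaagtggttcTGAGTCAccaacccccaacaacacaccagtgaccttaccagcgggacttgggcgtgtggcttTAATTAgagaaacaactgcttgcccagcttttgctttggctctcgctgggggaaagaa
Tmem106a Prrx1 summit, chr11:101449030-101449180: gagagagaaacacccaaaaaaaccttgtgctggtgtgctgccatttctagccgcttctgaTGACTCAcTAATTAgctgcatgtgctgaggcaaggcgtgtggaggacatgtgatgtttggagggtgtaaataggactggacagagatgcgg
Etv1 Prrx1 summit, chr12:39515470-39515620: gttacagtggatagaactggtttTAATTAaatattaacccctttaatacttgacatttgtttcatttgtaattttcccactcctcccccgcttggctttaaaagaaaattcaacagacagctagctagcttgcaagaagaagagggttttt

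The confined sites were mostly single, weak summits. Their median length was 585 bp (501 to 1935 bp), 90.9% held 1 summit from each MMTV-CAF list, and the best WT and SG summits lay a median of 78 bp apart. The median −log10 p was 11.7 in WT and 13.6 in SG, against 27.9 and 33.7 at the 28373 sites that both MMTV-CAF lists shared with at least 1 other list, here called shared sites. The lower of the 2 values was under 10 at 47.7% of confined sites and at 12.4% of shared sites. The members closest to the threshold were near Sulf2 (5.01 in WT, 13 in SG), Vegfa (25.6 and 5.06) and Itgb3 (11.5 and 5.06). Just outside it, sites near B2m, Arhgap18 and Dusp14 were lost through summits of 5.04 in wound-healing SG and of 5.05 and 5.06 in MEF WT.

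Of the 33213 sites of both MMTV-CAF lists, 14.6% were confined and 32.2% had summits in all 5 other lists. The nearest summit of another fibroblast lay a median of 2227 bp from the summits of a confined site (501 to 859487 bp), within 1 kb at 28.8% and within 5 kb at 65.2%. Many confined sites thus stood beside regions that MEF or wound-healing fibroblasts also acetylated. The order of the 3 kinds of fibroblast by number of confined sites changed when the lists were shortened. As deposited, 1973 sites were confined to MEF (WT and SG) and 659 to wound-healing fibroblasts, both fewer than the 4840 of MMTV-CAF. With each list held to its strongest 29325 summits, 1142 sites were confined to MMTV-CAF, 1398 to MEF and 746 to wound-healing fibroblasts, so that MMTV-CAF no longer had the most. Only 619 of the 4840 sites (12.8%) overlapped the 1142, and the strict meaning of "confined" therefore holds for the lists as deposited.

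**Figure D1:**
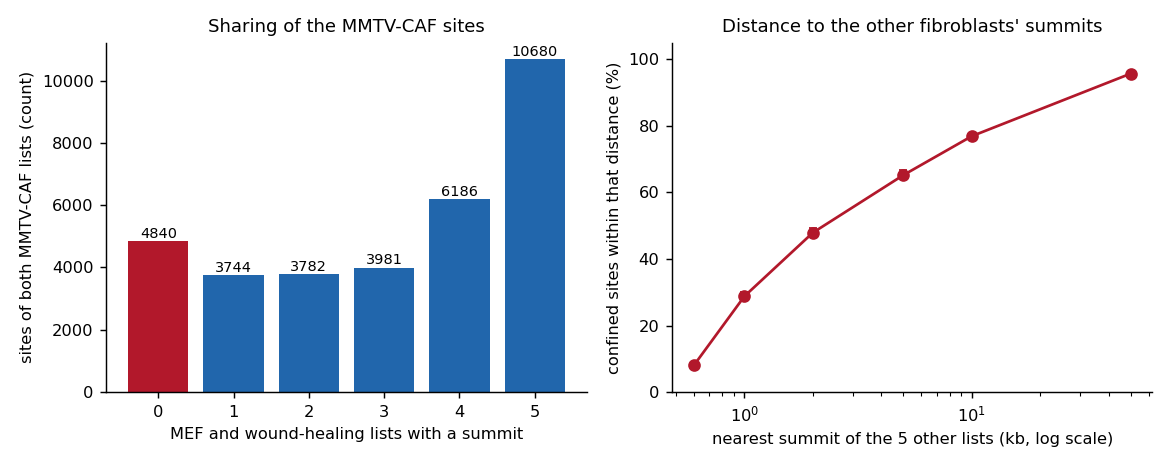
Left, bars count the sites of both MMTV-CAF lists by the number of the 5 MEF and wound-healing lists with a summit there, 4840 with none and 10680 with all 5. Right, points give the share of confined sites with a summit of those 5 lists within the distance on the log axis, with Wilson 95% intervals, and rise from 28.8% at 1 kb to 95.7% at 50 kb.

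Confined sites lay away from gene starts. Within 1 kb of the start of a protein-coding gene, here a promoter, lay 605 of them (12.5%, Wilson 95% interval 11.6 to 13.5%), against 22.9% of all merged sites, 42.9% of shared sites and 66% of the sites in all 7 lists. Intervals throughout cover counting error over sites and not differences between cultures. The share was close to that of the sites confined to MEF (11.5%) and below that of the sites confined to wound-healing fibroblasts (21.7%). Introns held 44.9% of confined sites, intergenic sequence 39.3% and exons 3.31%. A promoter share depended on how near another fibroblast's summit was: it was 24.3% (22.1 to 26.6%) where that summit was within 1 kb and 7.55% (6.38 to 8.91%) where it was over 5 kb away.

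Most of the 8 strongest promoter sites lay near a summit of another fibroblast. At Asap1, which encodes a GTPase-activating protein for Arf proteins, the site chr15:64214594-64215160 reached a −log10 p of 95.3 in WT and 88.24 in SG. Another list had a summit 579 bp away, and H3K4me3 covered the site in all 7 lists. The sites at Top1 (DNA topoisomerase I; 73.2 and 75.15), Ube2b (a ubiquitin-conjugating enzyme; 69 and 71.16), Tnpo2 (a nuclear import receptor; 66.4 and 77.21) and Dscc1 (a subunit of a clamp loader; 49.19 and 85.19) were of the same kind, with another list's summit 506, 555, 911 and 519 bp away and H3K4me3 in all 7 lists. These promoters met the rule although other fibroblasts had a summit just outside the window. St6galnac6 (a sialyltransferase; 66.4 and 73.31) and Ccdc80 (a matrix protein; 63.01 and 56.96) had such a summit 600 and 668 bp away, but H3K4me3 did not cover the first in MEF KI or the second in MEF SG. The last of the 8, near Hoxc9 (102 and 88.05), lay 1433 bp from another summit, and no MEF list had H3K4me3 over it.

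H3K4me3, which the rule did not use, covered more confined sites in the MMTV-CAF lists than in the others. An H3K4me3 region covered 41.1% of confined sites in MMTV-CAF WT and 43% in MMTV-CAF SG, beside 43.7% and 44.5% of all merged sites. The order of the WT shares turned with the setting: with lists of equal length 63.1% of confined and 56.1% of all merged sites were covered, and with H3K4me3 regions of a −log10 p of at least 10, 20.8% and 28.4%. Shared sites were covered more often under each of these settings (75.6%, 89.4% and 50.8%). In the other lists it covered fewer confined sites than merged sites: 12.9% against 27% in MEF WT, 7.71% against 20.6% in MEF KI, 10.4% against 24.7% in MEF SG, 12.9% against 26.5% in wound-healing WT and 15.9% against 30.7% in wound-healing SG. No list covered 47.3% of confined sites. H3K4me3 in both MMTV-CAF lists and in no other was found at 720 confined sites (14.9%), against 7.52% of all merged sites and 12.5% of shared sites.

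At promoters the gap was wider. Of the 605 promoter members, 69 (11.4%) carried H3K4me3 in both MMTV-CAF lists and no other, against 2.83% of all promoter sites and 1.68% of shared promoter sites, while 181 (29.9%) carried it in all 5 other lists. Away from promoters the share was 15.4% at confined sites, 8.92% at all distal sites and 20.7% at shared distal sites, so there it was lower than at shared sites. H3K4me3 of MMTV-CAF alone became more frequent with distance from the other fibroblasts' summits, from 10.7% (9.17 to 12.4%) within 1 kb to 19.1% (17.3 to 21.1%) over 5 kb. MMTV-CAF WT H3K4me3 itself became less frequent over the same distances, from 51.4% to 34.7%, as did that of MEF WT (27.7% to 4.1%) and wound-healing WT (25.7% to 5.17%).

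**Figure D2:**
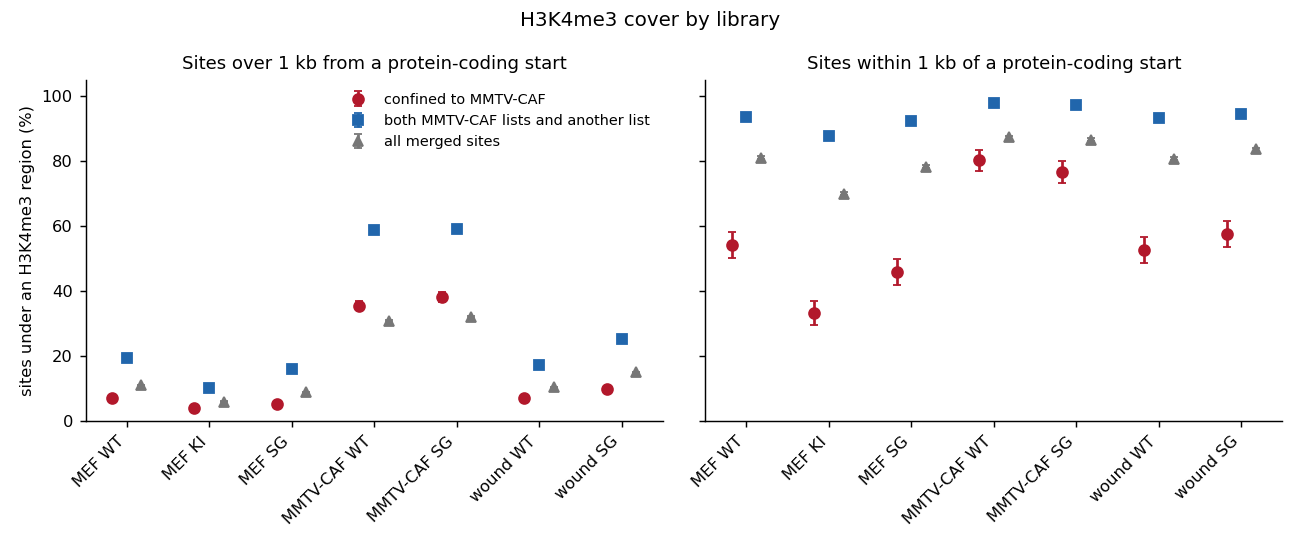
Percentage of sites under an H3K4me3 region in each library, for sites away from and at promoters; points are confined sites (circles), shared sites (squares) and all merged sites (triangles), with Wilson 95% intervals. Confined sites at promoters were covered in 80.3% of cases in MMTV-CAF WT and 33.2% in MEF KI.

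The 10 strongest promoter members with H3K4me3 in the MMTV-CAF lists alone were taken after their values had been seen. At Lrrc32, which encodes the receptor GARP that holds latent TGF-β at the cell surface, the site chr7:105642479-105643021 had a −log10 p of 42.95 in WT and 30.68 in SG, and the H3K4me3 regions over it were 7164 and 5585 bp wide. At Meox2, a homeobox gene of the somites and limb muscle, the site (36.09 and 25.79) lay 727338 bp from the nearest summit of any other fibroblast, with H3K4me3 regions of 5410 and 5290 bp. Tbx18, a T-box factor of mesenchyme, had a site 936 bp from its start (25.93 and 43.54) under regions of 6390 and 7753 bp. The cover is that of the site and not of the start: all 7 lists had H3K4me3 at the start of Tbx18, in regions of 2152 to 3422 bp outside MMTV-CAF, which did not reach this site. The rest of the 10 were at Ugt1a6a (a glucuronosyltransferase; 44.12 and 61.48), Epha2 (an ephrin receptor; 40.63 and 53.49), Fcgr4 (an Fc receptor; 25.38 and 35.49), Abr, Slc10a6, Xpnpep2 and Slc23a2 (a vitamin C transporter; 21.61 and 38.99). At Abr, Slc10a6, Xpnpep2 and Slc23a2 an MMTV-CAF Prrx1 summit lay 268, 247, 146 and 417 bp from the site's summits, and at Xpnpep2 a wound-healing Prrx1 summit lay 181 bp away.

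Away from promoters, the strongest sites with H3K4me3 in the MMTV-CAF lists alone were the 4933407K13Rik site shown above (chrX:72979949-72980455; 80.88 in WT and 92.84 in SG), whose H3K4me3 regions were 331 and 382 bp wide, and sites near Nr2f2 (a nuclear receptor, COUP-TFII; chr7:77482282-77482821; 65.11 and 73.82), in an intron of Iffo2 (64.15 and 71.1), near Murc (also called Cavin4; chr4:48696040-48696649; 70.31 and 60.9) and near Zfp365 (58.38 and 63.12). The Nr2f2 and Murc regions were wide, 4853 and 7993 bp and 4535 and 4424 bp in WT and SG, and no protein-coding start lay within 22658 and 19654 bp. Another fibroblast's summit lay 624 bp from the Iffo2 site and 16056 bp from the Murc site.

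Within 500 bp, Prrx1 summits were less frequent at confined sites than at shared sites. Against all merged sites the share was close in the lists as deposited and higher with lists of equal length. Distance was taken from every H3K27ac summit of a site, so sites with summits of more lists reach further. The median length was 585 bp at confined sites and 851 bp at sites in all 7 lists, and this was not adjusted for. In the lists as deposited, a Prrx1 summit of MMTV-CAF WT lay within 500 bp of the summits of 285 confined sites (5.89%, 5.26 to 6.59%), against 6.19% of all merged sites, 11.6% of shared sites and 14.3% of the sites in all 7 lists. The share at the sites confined to MEF was 2.74% and at those confined to wound-healing fibroblasts 2.28%, but this Prrx1 list came from MMTV-CAF and was the longest. With the Prrx1 list of their own cells, the sites confined to MEF had 1.82% (1.32 to 2.52%), against 1.13% of all merged sites. Those confined to wound-healing fibroblasts had 3.03% (1.97 to 4.64%), against 3.98%. With lists of equal length it was 10.2% (8.54 to 12%) at confined sites, 8.18% at all merged sites and 13.7% at shared sites. The Prrx1 lists of the other cells met fewer confined sites: 31 in MEF WT (0.64%, against 1.13% of all merged sites) and 98 in wound-healing WT (2.02%, against 3.98%). Seen from the factor, 278 of the 8000 MMTV-CAF Prrx1 summits (3.48%) lay within 500 bp of a confined site's summits.

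Within 10 kb an MMTV-CAF Prrx1 summit was found for 31.7% of confined sites (30.4 to 33%), 30.4% of shared sites and 26.8% of all merged sites, so that the gap to shared sites seen at 500 bp was absent at 10 kb. Confined sites over 5 kb from another fibroblast's summit had a Prrx1 summit within 500 bp more often (8.02%, 6.82 to 9.42%) than those 1 to 5 kb away (4.37%, 3.51 to 5.43%) or within 1 kb (5.23%, 4.18 to 6.53%).

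**Figure D3:**
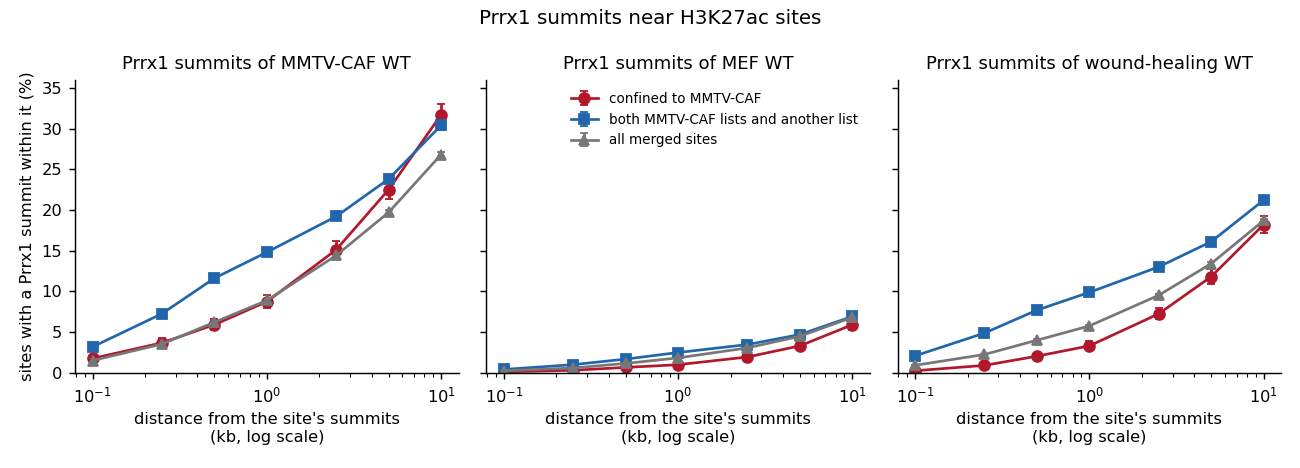
Percentage of sites with a Prrx1 summit within the distance on the log axis, for the Prrx1 lists of the 3 WT fibroblasts; symbols as in the plot of H3K4me3 cover, bars are Wilson 95% intervals. At 500 bp in MMTV-CAF WT, confined sites (5.89%) sit on all merged sites (6.19%) and below shared sites (11.6%).

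The 285 confined sites with an MMTV-CAF Prrx1 summit carried MMTV-CAF WT H3K4me3 more often (57.9%, 52.1 to 63.5%) than the 4555 without (40.1%, 38.7 to 41.5%), and H3K4me3 of MMTV-CAF alone in 30.2% against 13.9%. Promoter share did not differ, at 12.6% and 12.5%. The same split was seen over all merged sites, where MMTV-CAF WT H3K4me3 covered 72.2% of sites with and 41.8% of sites without the summit. The median −log10 p of SG minus WT was 0.815 at confined sites with the summit and 1.74 at those without, and 1.22 and 3.64 at shared sites, values that describe single libraries of unlike strength.

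The strongest confined sites with a Prrx1 summit were those at Asap1 (286 bp from it), in an intron of Eno1 (the glycolytic enzyme enolase; 70.15 and 72.42; 45 bp) and near Mchr1 (chr15:81047605-81048126; 56.01 and 55.19; 403 bp). The Mchr1 site lay 17854 bp from another fibroblast's summit, its Prrx1 summit had a −log10 p of 11.19, and H3K4me3 covered it in both MMTV-CAF lists, in regions of 1464 and 1186 bp, and in no other. The rest of the 8 lay near 6430527G18Rik, Tcfap2c and Gm17379 and at the promoters of BC028528 and Pcdh18 (a protocadherin), with −log10 p of the Prrx1 summit between 3.561 (Gm17379) and 9.422 (Pcdh18). At Pcdh18 the Prrx1 lists of MEF and wound-healing fibroblasts also had summits, 461 and 543 bp away.

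Of 22380 protein-coding genes, 2969 (13.3%) had at least 1 confined site in the gene or within 10 kb of it, and 82 had 5 or more. Long genes offer more room: the median length was 15.4 kb over all genes, 28.1 kb over genes with a confined site and 135 kb over those with 5 or more. Of the 13257 genes that had any site of both MMTV-CAF lists, 22.4% had a confined one, and 1323 confined sites lay over no gene. The genes with the most were Gm20388 and Tgfbr3 (26 each), Fbn1 (16), AF064781 and Fgfr2 (13 each), Bre (12) and Lhfpl2 (10). Prkag2, 4930525F21Rik, Cubn and Mical2 had 9 each, and Fgf7, Eif4e3, Atxn1 and Palm2 had 8 each. The models of Gm20388 and Fgfr2 span 4435 and 3009 kb and take in other genes, AF064781 and Palm2 overlap, as do 4930525F21Rik and Fgf7, and the sites of such genes cannot be given to 1 of them.

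On the fibroblast matrix list, which holds matrix proteins and also receptors and other fibroblast markers such as Pdgfra, Pdgfrb, Thy1 and S100a4, 16 of 34 genes had a confined site (47.1%, against 13.3% of all genes), with a median gene length of 44.2 kb against 15.4 kb. Fbn1, which encodes the microfibril protein fibrillin-1 that also tethers latent TGF-β, held 61 and 52 H3K27ac summits in MMTV-CAF, 21, 10 and 13 in MEF and 25 and 10 in wound-healing fibroblasts. The strongest of its 16 confined sites (chr2:125130807-125131848, intronic; 23.43 in WT and 20.04 in SG) had a Prrx1 summit of MMTV-CAF at 57 bp and of wound-healing fibroblasts at 29 bp. A higher MMTV-CAF count at such a gene is partly built in, since each confined site adds summits of MMTV-CAF and none of another list. Col14a1, a collagen on the surface of collagen fibrils, held 12 and 10 summits in MMTV-CAF, 2 in MEF WT and 0 in the other 4 lists, and the strongest of its 4 confined sites (chr15:55211213-55211745; 24.68 and 34.21) lay 48 bp from an MMTV-CAF Prrx1 summit and 12424 bp from any other fibroblast's H3K27ac summit. The start of Col14a1 went the other way: H3K4me3 covered 1488 and 1874 bp there in wound-healing fibroblasts and 0 bp in both MMTV-CAF lists. Fbln1, encoding the matrix protein fibulin-1, had 5 confined sites and 12 and 14 summits in MMTV-CAF against 0 to 4 elsewhere. Pdgfra, the receptor for platelet-derived growth factor that marks fibroblasts, had 6 confined sites and 11 and 13 summits in MMTV-CAF against 1 to 4 elsewhere. The strongest was 517 bp from its start (chr5:75547260-75547799; 21.15 and 41.23), under H3K4me3 regions 11742 and 9823 bp wide in MMTV-CAF and 5822 bp wide in MEF WT. Col3a1, Dcn, Col5a1, Col5a2, Col5a3 and Col15a1 had 2 or 3 each.

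Of 27 growth factors, 12 had a confined site (44.4%, against 13.3% of all genes), with a median gene length of 56.5 kb against 15.4 kb. Fgf7, the keratinocyte growth factor by which fibroblasts act on epithelium, had 8, and held 20 and 38 summits in MMTV-CAF, 15, 16 and 10 in MEF and 7 and 12 in wound-healing fibroblasts. H3K4me3 at its start was 13982 and 16156 bp wide in MMTV-CAF, against 4740 to 8727 bp in the other lists, whose regions were narrower in general. Fgf2 had 4 confined sites (23 and 17 summits in MMTV-CAF against 3 to 9 elsewhere), and Igf1, Pdgfb, Angpt1 and Kitl had 2 each. Higher MMTV-CAF counts at Fgf7 and Fgf2 are likewise partly built in by the rule and by the longer MMTV-CAF lists. At Kitl, the ligand of the receptor Kit, the site chr10:99479768-99480327 had a −log10 p of 26.41 in WT and 43.2 in SG.

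Of 35 genes of the TGF-β and BMP pathways, 10 had a confined site (28.6%, against 13.3% of all genes, with a median length of 64.8 kb against 15.4 kb), and 26 of their 41 confined sites were in Tgfbr3. Among genes with any site of both MMTV-CAF lists the share was 34.5%, against 22.4% of all such genes. Tgfbr3 encodes betaglycan, a coreceptor that presents TGF-β2 and binds inhibin. It held 76 and 86 H3K27ac summits in MMTV-CAF, 17, 18 and 17 in MEF and 15 and 28 in wound-healing fibroblasts, and 14 Prrx1 summits in MMTV-CAF against 1 in MEF and 3 in wound-healing fibroblasts. H3K4me3 at its start was 8481 and 6792 bp wide in MMTV-CAF and 2168 to 5326 bp wide elsewhere, in lists where MMTV-CAF regions were wider in general. Its sites were many rather than strong: the strongest (chr5:107541467-107542126) had a −log10 p of 16.64 in WT and 33.27 in SG. Smad3, a signal transducer of TGF-β, had 4 confined sites, and the inhibitory Smad7 and the secreted protein Tgfbi had 2 each.

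**Figure D4:**
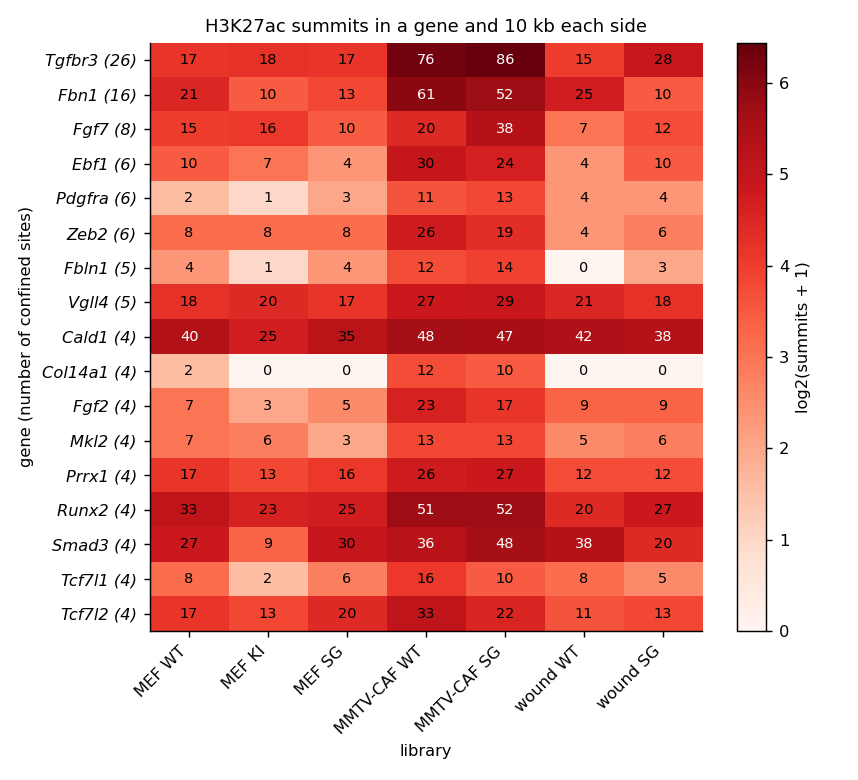
Number of H3K27ac summits in each library over the gene and 10 kb on each side, for list genes drawn from those with at least 4 confined sites (number in parentheses); colour follows log2 of summits plus 1. MMTV-CAF counts exceed the other 5 lists at every gene drawn except Smad3, where MMTV-CAF WT has 36 and wound-healing WT 38. The genes were drawn for their confined sites, so part of this excess is built in.

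Transcription factors of regional and mesenchymal identity had a confined site in 17 of 72 genes (23.6%, against 13.3% of all genes), and in 37% of those with any site of both MMTV-CAF lists, against 22.4% of all such genes. The strongest confined site, by the lower value of WT and SG, and the third strongest, after that of Asap1, lay between Hoxc10 and Hoxc9, homeobox genes of the posterior body axis. The site chr15:102803763-102804341 reached 101.5 in WT and 97.55 in SG and the site chr15:102805894-102806511, 359 bp from a Hoxc9 start, 102 and 88.05, with the nearest other summit 2206 and 1433 bp away. The H3K4me3 over them did not follow MMTV-CAF alone: domains of 28257 and 28437 bp in MMTV-CAF were matched by 25297 and 28250 bp in wound-healing fibroblasts, and no MEF list covered either site. Zeb2, a repressor of epithelial genes, had 6 confined sites, the strongest 1248 bp from a start (chr2:44971069-44971667, 61.27 and 60.3). H3K4me3 at its start was 15390 and 15303 bp wide in MMTV-CAF against 4626 to 5195 bp elsewhere, again beside the general difference in width. Prrx1 itself had 4 confined sites, with 26 and 27 summits in MMTV-CAF against 12 to 17 elsewhere, and H3K4me3 at its start of 13259 bp in MMTV-CAF WT and 15484 bp in SG. These marks do not check the deletion, which a guide makes in the coding sequence. Tbx18, Hoxc9, Hoxc10 and Nr2f1 had 3 each, and Foxp1 and Osr1 had 2.

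The shares on the other lists stand against the same 13.3% of all genes. Of 40 Wnt genes 10 (25%) had a confined site, led by the nuclear effectors Tcf7l1 and Tcf7l2 with 4 each. At Tcf7l2 a site 5621 bp from a start (chr19:55822956-55823625) reached 57.36 and 43.92. Of 30 proteases and inhibitors 10 (33.3%) had one, with 3 each at Mmp11, a stromelysin of tumour stroma, and Timp2, and 2 each at Mmp2 and Adamts2. Of 22 genes of the AP-1 and Tead group 7 (31.8%) had one, with 5 at the Tead cofactor Vgll4, and of 21 contractile genes 5 (23.8%), with 4 each at Cald1 and Mkl2. Of 22 cytokines and chemokines 4 (18.2%) had one, with 2 at Csf1.

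Lists of other lineages were met as well. A confined site was found at 7 of 21 adipogenic genes (33.3%), with 6 at Ebf1, at 4 of 19 cartilage and bone genes (21.1%), with 4 at Runx2, at 4 of 17 leukocyte genes (23.5%), with 3 at Csf1r, and at 3 of 17 endothelial genes (17.6%), with 2 each at Pecam1 and Eng. The shares were lowest for the epithelial list, 3 of 30 genes (10%), with 2 at Krt8, and for pericytes and smooth muscle, 1 of 12 genes (8.33%). Among genes that had any site of both MMTV-CAF lists, 55.2% of matrix genes and 50% of growth factors had a confined one, but so did 57.1% of the 7 leukocyte genes and 60% of the 5 endothelial genes, against 22.4% of all such genes. Csf1r and Pecam1 carried no H3K4me3 at the start in any list. These shares are descriptions, and gene length was not matched.

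Most confined sites stood alone, and a minority lay in groups. Within 12.5 kb of each other they formed 3704 groups, of which 2923 were single sites, and 219 groups of 3 or more held 793 sites (16.4%). The largest lay in Tgfbr3 (chr5:107575920-107633749) with 14 sites, followed by 10 sites beside Errfi1 (chr4:150148287-150177080), the gene of an inhibitor of the EGF receptor. Zcchc24, the Fgf7 region and Firre had 8 each. In the Errfi1 group H3K4me3 covered 2553 and 5374 bp in MMTV-CAF and 0 bp in the other lists. H3K27ac summits of every list lay in that group, 17 and 18 in MMTV-CAF, 4, 5 and 5 in MEF and 9 and 3 in wound-healing fibroblasts. A group of 7 sites at chr1:71848451-71863603, over no protein-coding gene, held 8 and 7 summits of MMTV-CAF and 0 of the other 5 lists. By chromosome the confined share ran from 3.04% on X (63 sites) to 6.5% on chromosome 15 (356 sites), with 0 of the 4 merged sites on Y.

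**Figure D5:**
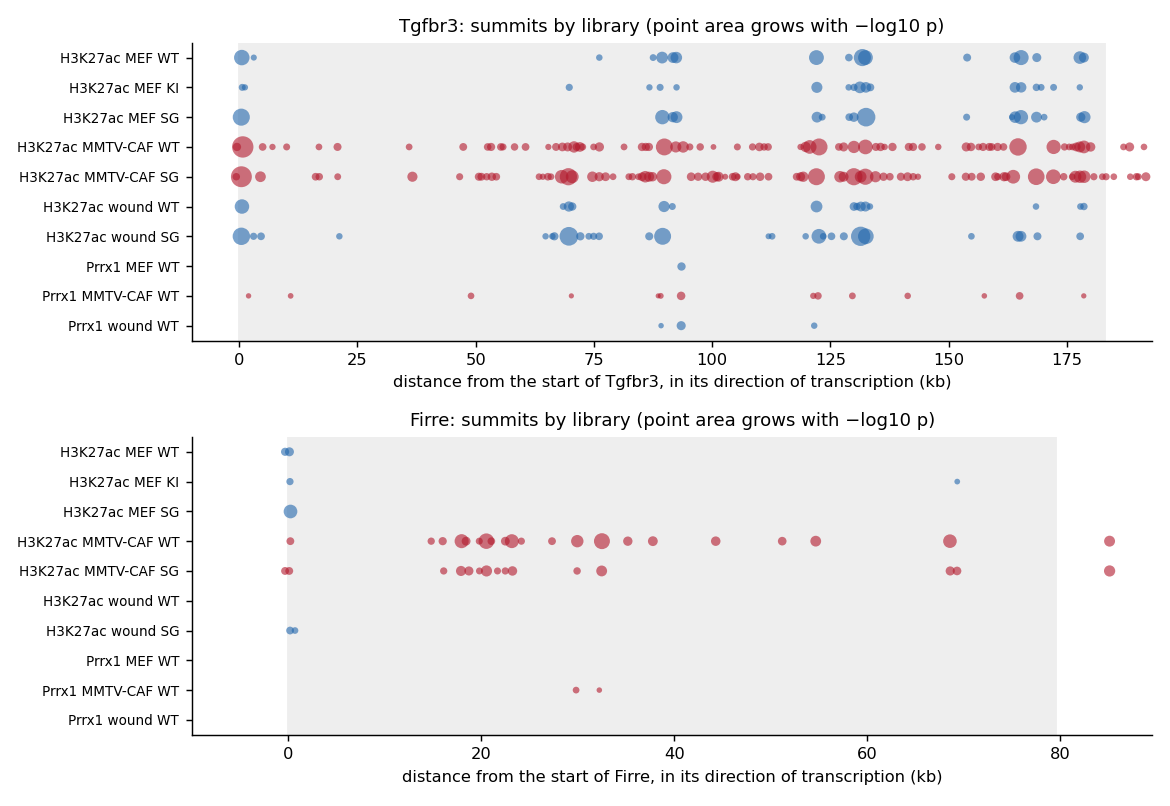
H3K27ac and Prrx1 summits (points, area growing with −log10 p) by library along Tgfbr3 and Firre, with distance in kb from the gene's start and the gene in grey. Tgfbr3 holds 76 and 86 H3K27ac summits in MMTV-CAF with 10 kb on each side, and inside Firre the MMTV-CAF rows hold 20 and 13 summits and the other rows 0 to 2.

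On the X chromosome, 14 of the 63 confined sites lay in 3 noncoding genes, singled out after their values had been seen. Firre (annotated as 6720401G13Rik, chrX:47908921-47988498, minus strand), whose RNA organises chromosome contacts in the nucleus, held 20 and 13 H3K27ac summits in MMTV-CAF, 1, 2 and 1 in MEF and 0 and 2 in wound-healing fibroblasts, with 9 confined sites. Its H3K4me3 regions numbered 17 and 8 in MMTV-CAF and 1 in each other list, covering 11210 and 5910 bp against 1045 to 1469 bp. A region covered the start of the gene in all 7 lists, and regions in its body were listed in MMTV-CAF alone. The 45-base stretch shown above occurred 4 times in the mouse genome, each time inside Firre, and 4 of its 9 confined sites held it. How the alignment treated reads that match several places is not given in the sources used here.

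4933407K13Rik (chrX:72952271-73010038), a noncoding gene of another repeated locus of the X, held 5 and 7 summits in MMTV-CAF and 1 in each other list, with 4 confined sites. Xist, the RNA that coats the inactive X chromosome of female cells, held 1 confined site (chrX:100677320-100677836; 43.74 in WT and 35.04 in SG), a Prrx1 summit of MMTV-CAF 808 bp from it, and H3K4me3 over 6746 and 5768 bp in MMTV-CAF. No other list had an H3K27ac summit or an H3K4me3 region in Xist. On the Y chromosome the H3K4me3 lists held 7, 14 and 3 regions in MEF, 4 and 5 in wound-healing fibroblasts, and 0 in both MMTV-CAF lists. The start of Uty, a Y-linked demethylase gene, was covered in all 5 MEF and wound-healing lists (494 to 1388 bp) and in neither MMTV-CAF list. It was the only one of 4 Y-linked genes covered in all 5: Kdm5d was covered in MEF WT, MEF SG and wound-healing SG, Ddx3y in MEF WT and MEF SG, and Eif2s3y in MEF WT and MEF KI. The labels give no sex, so sex joins strain, tissue and tumour origin among the differences that cannot be told apart. Without the X and Y chromosomes 4777 confined sites were left, with a promoter share of 12.4% and an MMTV-CAF Prrx1 share of 5.8%.

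Of 15 motifs searched around the summits, most were about as frequent at confined sites as at all merged sites. Both strands were searched within 150 bp of the MMTV-CAF WT summit, or of a site's strongest summit where that list had none. TGANTCA was found at 9.57% of confined sites (8.77 to 10.4%), 8.37% of all merged sites and 7.2% of shared sites. Away from promoters the shares were 10% (9.17 to 11%), 9.46% and 9.83%. At positions 2 kb to either side of confined sites TGANTCA was no less frequent, at 9.89% (9.31 to 10.5%), and beside all merged sites it was found at 9.44%. GGAATG (Tead) was found at 15.6% of confined and 16.4% of all sites, TTGCNNAA (C/EBP) at 11.8% and 10.7%, TGTGGTT (Runx) at 6.61% and 6.26%, and TAATTA at 4.77% and 4.53%. TAATTA was more frequent 2 kb to either side, at 7.44% beside confined sites and 8.1% beside all merged sites. GGGCGG (the GC box) was found less often, at 6.47% of confined sites against 11.5% of all and 22.2% of shared sites, but away from promoters at 5.76%, 5.34% and 7.03%. TAATTA lay at 14% (10.5 to 18.5%) of confined sites with an MMTV-CAF Prrx1 summit and at 4.19% (3.65 to 4.81%) of those without. Around the Prrx1 summits themselves, within 100 bp, TAATTA was found at 31.3% of the 278 at confined sites (26.1 to 37%), 22.4% of those at shared sites and 35.5% of all 8000. The Tmem106a summit shown above holds TGANTCA and TAATTA side by side, the Gch1 summit holds both further apart, and the Prrx1 summits there had a −log10 p of 24.13 and 26.05.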

How the data were processed

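ChIP-seq for H3K27ac, H3K4me3 and Prrx1 gave 17 of 24 samples; 7 inputs were not used here. Per the labels and the methods of the study, the authors used Trimmomatic for trimming, Bowtie for alignment to mm9, Picard for duplicate removal and MACS2, against the input, for peaks. The study also states that its Prrx1 ChIP-seq was duplicated, with IgG as a control. Here 1 Prrx1 list per kind of fibroblast was used. In the H3K27ac and Prrx1 files as deposited, each 1-bp summit has a −log10 p. Each broad H3K4me3 region as deposited has a fold enrichment (ratio) and both its −log10 p and −log10 q. Depth is unknown.

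Summits were widened by 250 bp and merged. Genes and starts came from GENCODE vM1 and sequence from NCBIM37, which is mm9. Prrx1 was sought within 500 bp, H3K4me3 by an overlap of at least 1 bp, and genes with 10 kb on each side. Firre and Mir100hg were named through RefSeq synonyms. Wilson 95% intervals were used and no test was made with 1 library per group. Named sites were the 8 strongest by the lower −log10 p of WT and SG in all, at promoters and with Prrx1, and the 5 strongest with H3K4me3 of MMTV-CAF alone. Named genes were the 15 with the most confined sites and list members with at least 2. The members and lists were chosen with earlier results of these data known. The merging was tested on simulated lists. Alternatives were the summit half-width, list threshold and length, lists left out, distances, overlaps and windows. Python 3.11.15, numpy 2.4.6, pandas 2.3.3 and matplotlib 3.10.9 were used. A few members of the gene lists are counted but not reported here by name.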

Additional observations from a re-analysis of the deposited data

How the results depend on the processing

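Of 81 recomputed values, 45 stayed within the interval of the value reported, or within 1.5 times a count, and 36 moved. The number of confined sites was 3164 with 500 bp on each side of a summit, 1142 with lists of equal length, 13619 with an MMTV-CAF WT summit enough and 20210 with an SG summit enough; the number of genes was 824, 5850 and 7432 in the last 3 of these. The promoter share was 10.1% at 500 bp, 13.6% at 150 bp, 14.3% at a −log10 p of at least 10, 17% with equal lists, 10.4% with WT enough, 11.3% with SG enough, 22.8% within 2.5 kb of a start and 14.7% with the starts of all annotated genes. The MMTV-CAF Prrx1 share was 6.89% at 500 bp on each side, 7.35% at a −log10 p of at least 10, 10.2% with equal lists, 5.13% with WT enough, 2.61% with SG enough, 3.66% within 250 bp of a summit, 8.72% within 1 kb, and 4.75% and 1.43% with Prrx1 summits of a −log10 p of at least 5 and 10. The share under MMTV-CAF WT H3K4me3 was 42.9% at 150 bp, 49.2% at a −log10 p of at least 10, 63.1% with equal lists, 31.7% with WT enough, 25.2% with SG enough, 34.5% with an overlap of 50% of the site and 20.8% with H3K4me3 of a −log10 p of at least 10. The TGANTCA share was 5.79% within 100 bp. Leaving out each of the 5 excluding lists in turn gave 5219 to 5997 sites, promoter shares of 11.8% to 13.6%, Prrx1 shares of 5.81% to 6.66%, H3K4me3 shares of 41.4% to 44.1%, TGANTCA shares of 9.41% to 9.85% and 3107 to 3647 genes. Leaving out the X and Y chromosomes, chosen after seeing the data, moved none of the 6 results. The cause of the moved counts and shares was not tested. No paired analysis was possible because these results come from no test: a site needed both MMTV-CAF lists, and WT was not tested against SG. Depth could not be read from peak lists, so whether a missing summit reflects shallow sequencing was not tested.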

Other observations

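Other noncoding genes with many confined sites were Pvt1 (13; chr15:61869542-62209651, downstream of Myc), Gm15581 (8), D230004N17Rik (the host gene Mir100hg, 7) and RP23-324B17.1 (7), also named after their values had been seen.

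In bins of 1 Mb, confined sites were most numerous in chr5:107000001-108000000 (nearest to Tgfbr3, Cdc7 and Brdt; 39 of 174 merged sites, 22.4%). Next came the bin of Fbn1 and Fgf7 on chromosome 2 (34 of 232, 14.7%), that of Fbln1, Ppara and Gramd4 on chromosome 15 (25 of 146, 17.1%), that of the caveolin gene Cav1 and the receptor gene Met on chromosome 6 (22 of 186, 11.8%), that of Errfi1 on chromosome 4 (22 of 140, 15.7%), that of Tmem189, Ptpn1 and Ube2v1 on chromosome 2 (21 of 306, 6.86%) and that of Pdgfra, Lnx1 and Chic2 on chromosome 5 (21 of 119, 17.6%).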
